A study of Mus musculus with 23 samples.

Results

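Of the 18412 genes in the tables, 112 were above their starting level 24 h after mouse embryonic stem (ES) cells lost the doxycycline that drove an Ago2 transgene, and below it by 96 h. They were taken from the authors' exon values of the time course, as group means of normalised reads with 1 read added. A member had a mean over the 4 times of at least 50, a ratio of 24 h to 0 h of at least 1.5 and a ratio of 96 h to 0 h of at most 0.9. At that level there were 12049 genes, 1106 of which reached 1.5 at 24 h. The 112 genes were 10.1% of these 1106, while 926 (83.7%) were still at 1.1 or more at 96 h and 68 lay between. The 926 genes that stayed up serve below as the set to compare with. The time course, exons and introns, is therefore only described, and tests were made in the rescue and among genotypes, whose libraries the choice did not use.

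Argonaute proteins hold a microRNA and bring it to mRNAs that carry a matching site, which lowers the stability and translation of those mRNAs. A direct target is set free when Argonaute is lost and is held down again when it returns. In ES cells, microRNAs act on regulators of the cell cycle, signalling and chromatin, and cells without them divide more slowly and differentiate poorly. The 112 genes are not defined by microRNA sites, and their names cover neuronal, matrix, signalling, metabolic, nuclear and cytoskeletal functions.

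The cells were grown on gelatin with serum and LIF, and strand-specific libraries were made from polyadenylated RNA. The time course used a clonal line that is null for Blm and for Ago1,2,3,4 and carries CreERT2 and TT-FHAgo2, an Ago2 transgene that responds to doxycycline. After 48 h at 2.5 µg/mL of the drug, these cells were sampled once they had spent 0, 24, 48 or 96 h in medium lacking it, with n = 2 libraries at each time. In the rescue, cells of that line went through 96 h in medium lacking the drug, and were taken then (n = 2) or after 48 h more at 0.1 or 2.5 µg/mL (n = 2 at each dose), so the dosed cells were 48 h longer in culture. The genotypes were the clones C62 and C86, null for Blm and Ago1,2,3,4 with CreERT2 (n = 2 libraries in all), the line E7, which has in addition a floxed human Ago2 (n = 3), the line B9, null for Blm and Ago1,3,4 (n = 2), and AB2.2 wild type cells (n = 2). All mutant lines are thus labelled as null for Blm, and Argonaute loss, Blm loss and the history of a line cannot be told apart against wild type cells. Nothing in the labels says that replicates were separate cultures, so the p-values may measure technical spread alone.

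The deposited tables hold means of groups, and the reads of single libraries were worked out from them. Libraries are numbered within a group by depth, the deepest first, and values are given in that order. Exonic reads per library were 32874536 to 62399060 in the time course, 24702128 to 53767538 in the rescue and 13516827 to 53691774 among the genotypes. Ago1 had 0 reads in the exons of every mutant library, against 3514 and 4693 in wild type cells. The other targeted genes kept exonic reads in lines labelled null for them. Ago2 had 5199 and 6439 reads in the clones, against 5200 and 7254 in wild type cells. Ago3 had 2146 and 578 reads in the clones, 1227 to 1963 in E7, 1326 and 1568 in B9 and 1915 to 4661 in the line with the transgene, against 366 and 607 in wild type cells. Blm had 2042 and 1095 reads in the clones, 2383 to 3058 in E7, 3159 and 3702 in B9 and 3586 to 6062 in the line with the transgene, against 4132 and 5483 in wild type cells. Ago4 was low throughout, at 5.23 to 42.3 reads in the mutant libraries, against 7.82 and 48.1 in wild type cells. Which part of each gene is deleted is not given in the sources used here, and reads from the rest of a gene check nothing. For Ago2, Ago3, Ago4 and Blm the genotypes are therefore those of the labels, which these reads do not show, and that holds for each comparison of the clones, E7 and B9. In the rescue, reads over Ago2 did not follow the dose, with 7259.8 and 7300.1 (no doxycycline), 7776 and 7672 (0.1 µg/mL), and 6093 and 5284 (2.5 µg/mL), and the table does not separate transgene from endogenous gene. Summed reads of the ES cell genes Pou5f1, Sox2, Nanog, Esrrb and Zfp42 were 304310 to 319890 in every library of the time course. In the rescue that sum was 210270 and 213460 (no doxycycline), 219730 and 228190 (0.1 µg/mL), and 243980 and 248240 (2.5 µg/mL), and its part in the results was not tested.

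Promoters of 88 of the 112 genes were found in a RefSeq table (build GRCm38.p6), each running from 250 bases before a gene's start to 50 after it. Because the list of hypoxia and glycolysis genes had 3 members in the group (Pgk1, Pfkl and Ankrd37), the promoters were searched on both strands for ACGTG and GCGTG, cores that hypoxia-inducible factor is known to bind. The promoters below belong to the 3 genes with the highest ratio at 24 h among those with a match, and are shown as examples of it. Capitals mark each core or its reverse complement, CACGT or CACGC.
Susd5, chr9:114057104-114057403, plus strand: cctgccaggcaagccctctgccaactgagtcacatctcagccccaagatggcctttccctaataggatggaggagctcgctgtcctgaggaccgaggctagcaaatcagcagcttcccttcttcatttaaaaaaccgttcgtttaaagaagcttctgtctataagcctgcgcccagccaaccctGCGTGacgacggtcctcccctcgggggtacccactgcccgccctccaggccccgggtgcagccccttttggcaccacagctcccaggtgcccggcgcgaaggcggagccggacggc
Sox8, chr17:25570637-25570936, minus strand: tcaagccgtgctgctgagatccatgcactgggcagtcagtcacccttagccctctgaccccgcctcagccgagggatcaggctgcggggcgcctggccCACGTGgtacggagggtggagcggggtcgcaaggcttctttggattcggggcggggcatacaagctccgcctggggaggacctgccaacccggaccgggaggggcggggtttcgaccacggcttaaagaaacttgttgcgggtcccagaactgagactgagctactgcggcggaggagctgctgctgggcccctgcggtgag
Irs1, chr1:82291390-82291689, minus strand: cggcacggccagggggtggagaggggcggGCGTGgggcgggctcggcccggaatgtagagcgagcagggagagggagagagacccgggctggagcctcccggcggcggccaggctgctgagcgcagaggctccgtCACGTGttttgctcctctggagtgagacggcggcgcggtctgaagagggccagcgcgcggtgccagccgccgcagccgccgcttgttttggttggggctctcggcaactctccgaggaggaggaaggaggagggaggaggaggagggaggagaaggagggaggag
Susd5 encodes a membrane protein with a sushi domain, Sox8 a transcription factor of the neural crest and gonad, and Irs1 the adaptor that links the insulin receptor to PI3 kinase. A core was found in 50 of the 88 promoters (56.8%), against 64.3% of 9558 promoters of genes at the same level and 43.8% of all 27025 in the table. The share in the 112 genes was thus not above that of expressed genes, and it was 56.8% of 697 promoters in the genes that stayed up. Other motifs were searched on both strands too, and 1 of them, CACGTG, overlaps ACGTG. It was in 5.68% of the 88 against 10.5% at level, CCAAT in 36.4% against 39.3%, GGGCGG in 58.0% against 67.0% and TATAAA in 7.95% against 6.40%. TGANTCA was in 4.55% against 4.405%, and TGACGTCA in 1.14% against 3.40%. A match is a description of letters, not of a bound site.

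In exons, the median gene of the 112 stood at 1.72 times its 0 h value at 24 h, 1.43 times at 48 h and 0.680 times at 96 h. The range was 1.502 to 2.97 at 24 h, 0.636 to 3.04 at 48 h and 0.0773 to 0.898 at 96 h. Most were highest at 24 h (91 genes), and 21 at 48 h. By 48 h, 12 were already under their 0 h mean, while 48 were still at 1.5 or more. At 24 h, 22 genes had reached 2 times their start, and at 96 h, 24 were at 0.5 of it or less. These bulk values cannot tell fewer cells that express a gene from less RNA per cell. The genes that stayed up had medians of 1.80 at 24 h, 2.28 at 48 h and 2.19 at 96 h. Both sets were chosen on these ratios at 24 and 96 h, so these medians are a description and nothing is read from them.

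**Figure D1:**
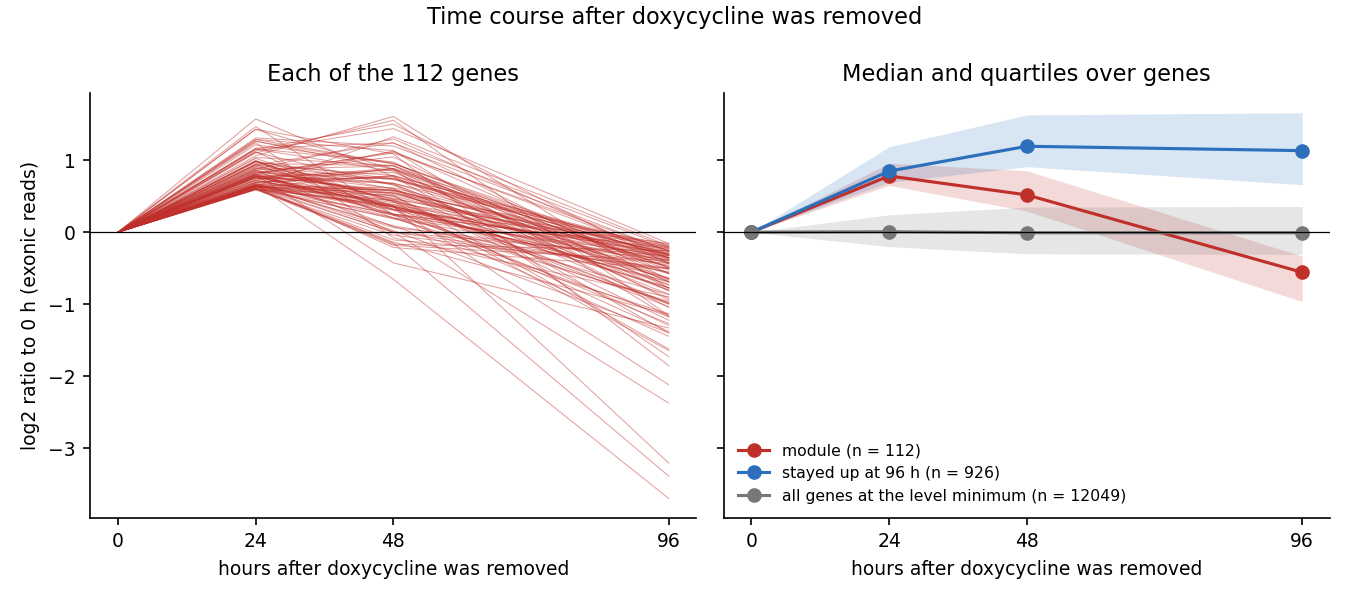
Ratio of exonic reads to 0 h, on a log2 scale, against hours without doxycycline. Left: each line is one of the 112 genes. Right: medians (points) and quartiles (bands) of the 112 genes, of the 926 that stayed up at 96 h and of all 12049 genes at the level minimum. The medians of the 112 genes and the 926 are 1.72 and 1.80 at 24 h, where both were chosen to be at 1.5 or more, and 1.43 and 2.28 at 48 h.

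Both 24 h libraries were above both 0 h libraries in 111 of the 112 genes, and both 96 h libraries were below both 0 h libraries in 95, against 39.3% and 42.3% of the 12049 genes at level. Both 48 h libraries lay above both 96 h libraries in 108 (30.5% of genes at level). At 48 h both libraries were below both 24 h libraries in 73 genes and above them in 13 (36.4% and 37.3% of genes at level). The choice used ratios of these same libraries, so nothing is read from these counts. The genes were weakly expressed, with a median of 145.5 normalised reads over the 4 times against 1563 for all genes at level, and 37 had under 100. Replicates also differed more in these genes than in others, by a median of 0.118 to 0.270 on the log2 scale within a time point against 0.0733 to 0.0955 for all genes. Of 13 markers of fibroblasts and feeder cells, 7 or 8 were under 10 reads in every library of a time point, and Col3a1, Fap and Postn were at 0 throughout. Their sum was 2324 to 2362 at 0 h, 2709.5 to 2737 at 24 h, 2604 to 2789.5 at 48 h and 3373 to 3464 at 96 h. It was thus highest at 96 h, where the 112 genes were lowest, and S100a6 made the largest part of it there. Its part in the results was not tested.

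At the limit of 24 h, Acyp1 (1.502), Col8a2 (1.505) and Upp1 (1.51) were just inside and Ly6g6e (1.499), C2cd4c (1.498) and Rnase4 (1.495) just outside. At the limit of 96 h, Tcp11l2 (0.898), H2-Q10 (0.896) and Spock2 (0.888) were just inside and Rbm44 (0.9002), Epha10 (0.901) and Mpp2 (0.901) just outside. On level, Wnk4 (50.8), Pip5kl1 (51.6) and Sh2d4a (52.9) were inside and Clca4b (49.2), Kif19a (49.2) and Tie1 (49.1) outside.

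The roles used from here on were given to 77 of the 112 genes after their values were seen, and 35 have none. Neuronal genes made the largest group with 21, whose median stood at 1.83 at 24 h and 0.642 at 96 h. No share of such genes at level is given, so the size of the group is a description only. A separate list of neural genes had 1 member (Gap43) among 24 at level, with medians of 1.08 at 24 h and 0.972 at 96 h. Gap43 encodes a growth cone protein of axons (chr16:42248442-42340651, minus strand, mm10). It had 922 and 916 reads (0 h), 1674 and 1609 (24 h), 1207 and 1157 (48 h), and 96.2 and 102 (96 h). The 4 times did not overlap, and the 96 h level was 0.109 of the start. Syt13, an atypical synaptotagmin, had 92.8 and 96.3 reads (0 h), 210.4 and 253 (24 h), 166 and 202 (48 h), and 48.6 and 85.6 (96 h). Its 96 h libraries lay further apart than those of 0 h, yet both were lower. Camkv, a kinase-like protein that binds calmodulin, had 1397 and 1489 reads (0 h), 2257 and 2210.0 (24 h), 1975 and 1930.3 (48 h), and 723 and 720.0 (96 h). Kif1a, the kinesin that carries synaptic vesicle precursors, had 147 and 124 reads (0 h), 274 and 329 (24 h), 379 and 389 (48 h), and 95.2 and 104 (96 h). Its peak thus came at 48 h, unlike those of the other neuronal genes above.

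Further neuronal genes with high ratios at 24 h were Doc2a, a calcium sensor of vesicle release (2.39), Atp2b2, a calcium pump of the plasma membrane (2.24), Phactr3, a regulator of protein phosphatase 1 (2.22), and Chrnb4, a subunit of the nicotinic acetylcholine receptor (2.16). Chrnb4 had 86 and 103 reads (0 h), 176 and 233 (24 h), 117 and 181 (48 h), and 44.7 and 49.3 (96 h). All of its 24 h libraries were above those of 0 h, and all of its 96 h libraries below. Nnat, the imprinted gene of the membrane protein neuronatin, had 739 and 794 reads (0 h), 1303 and 1159 (24 h), 1078 and 1087 (48 h), and 683 and 500.4 (96 h). The neuronal group was filled by Prph, Plppr3, Nxph3, Shisa8, Cpne9, Olfm2, Eno2, Jakmip2, Tub, Tulp1, Fgf13 and Nmb, whose ratios at 24 h were 1.55 to 2.14.

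Matrix and secreted proteins were 14, with a median of 1.73 at 24 h and 0.602 at 96 h. Mmp2, the gelatinase that cleaves type IV collagen, had 565 and 521 reads (0 h), 1175 and 1245 (24 h), 1036 and 1101 (48 h), and 287 and 278 (96 h). Its inhibitor Timp2 had 65.7 and 68.9 reads (0 h), 136 and 122 (24 h), 149 and 172 (48 h), and 50.5 and 34.2 (96 h). Protease and inhibitor were thus high together at 24 and 48 h, at different levels. Matn3, a matrilin of cartilage matrix, had 104 and 113 reads (0 h), 171 and 173 (24 h), 73.7 and 63.7 (48 h), and 4.86 and 10.1 (96 h). It was the lowest of the 112 relative to 0 h at both 48 h (0.636) and 96 h (0.0773). Fbln2, a fibulin of basement membranes and elastic fibres that was picked after its values were seen, had 75.4 and 91.9 reads (0 h), 157 and 194 (24 h), 256 and 257 (48 h), and 51.5 and 45.3 (96 h), the highest ratio of the 112 at 48 h (3.04). Sepp1 (Selenop), the selenium carrier of plasma, had 110.2 and 172 reads (0 h), 366 and 416 (24 h), 156 and 178 (48 h), and 85.5 and 68.5 (96 h). Its ratio of 2.76 at 24 h came down to 1.18 at 48 h, while that of Fbln2 went on up. The fibrillin Fbn2, the collagens Col11a1 and Col8a2, and Mfap4, Olfml2b, Spock2, C1s1, Lpl and Klk1 made up the rest, with ratios of 1.505 to 1.99 at 24 h.

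Signalling genes were 16, with medians of 1.70 and 0.674 at 24 and 96 h. Among ligands, Dll1, which activates Notch, had 149 and 164 reads (0 h), 242 and 269 (24 h), 196 and 231 (48 h), and 92.3 and 64.4 (96 h). Among secreted Wnt modulators, Sfrp2 had 289.9 and 280.1 reads (0 h), 491 and 505 (24 h), 625 and 611 (48 h), and 245 and 212 (96 h), and Dkk3 had 264 and 253 reads (0 h), 403 and 514 (24 h), 512 and 555 (48 h), and 173 and 128 (96 h). Both peaked at 48 h, whereas Dll1 peaked at 24 h. Fstl3, which binds activin, had 127 and 129 reads (0 h), 245 and 262 (24 h), 177 and 152 (48 h), and 77.7 and 94.7 (96 h). Among receptors, Fgfr4, for fibroblast growth factors, had 138 and 119 reads (0 h), 185 and 217 (24 h), 128 and 129 (48 h), and 100.04 and 81.6 (96 h), and Cd6, a receptor known from T cells, reached 2.32 times its start at 24 h. Sema5a, a membrane-bound semaphorin, stood at 1.57 at 24 h and was among the lowest at 96 h (0.231). Inside the cell, Irs1 had 30.9 and 38.3 reads (0 h), 82.9 and 88.8 (24 h), 78.3 and 75.8 (48 h), and 19.4 and 10.1 (96 h). It was the weakest of the 112 per length, with 9.37 normalised reads per kilobase at 24 h. The others were Gprc5b, Mertk, Pde2a, Pde5a, Fgf3, Gas1, Arrb1 and Efna2, at 1.51 to 1.81 at 24 h.

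Metabolic genes were 11, and held the most abundant members. Pgk1, the phosphoglycerate kinase of glycolysis, had 15548 and 14959 reads (0 h), 23218 and 24744 (24 h), 18024 and 17950.0 (48 h), and 11072 and 12194 (96 h). Per length it was the highest of the 112, with 13140 normalised reads per kilobase at 24 h. Pfkl, the liver form of phosphofructokinase, had 8805 and 8484 reads (0 h), 13456 and 13709 (24 h), 11268 and 11736 (48 h), and 7157 and 7815 (96 h). Slc39a10, a zinc importer, had 5874 and 5694 reads (0 h), 8983 and 9064 (24 h), 4989 and 4995 (48 h), and 3989 and 4158 (96 h), and was thus below its start by 48 h, when both glycolytic enzymes were still above theirs. Upp1, a uridine phosphorylase, had 4110.1 and 3869.9 reads (0 h), 6172 and 5877 (24 h), 4532 and 4613 (48 h), and 3368 and 2984 (96 h). Acot1 and Acot3, acyl-CoA thioesterases, are paralogs 33.8 kb apart on chromosome 12, so reads may be split between them. Acot1 had 282 and 312 reads (0 h), 593 and 616 (24 h), 400.3 and 397 (48 h), and 88.4 and 101 (96 h), and Acot3 had 41.6 and 56.9 reads (0 h), 152 and 116 (24 h), 102 and 109.6 (48 h), and 9.71 and 16.1 (96 h). Both were lowest at 96 h, without overlap. Mgst1, a microsomal glutathione transferase, had 60.9 and 28.4 reads (0 h), 121 and 122 (24 h), 73 and 92.7 (48 h), and 15.5 and 10.1 (96 h). Mt3, a metallothionein known from brain, had 83.1 and 86.4 reads (0 h), 202 and 134 (24 h), 109 and 118 (48 h), and 47.6 and 34.2 (96 h). Gnmt, Acyp1 and Atp5k were the remaining 3, at 1.502 to 1.52 at 24 h.

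Nuclear and growth genes were 8, with medians of 1.79 and 0.759. Mycl, a Myc family transcription factor, had 889 and 949 reads (0 h), 1784 and 1983 (24 h), 1728 and 1762 (48 h), and 629 and 646 (96 h). Cdkn1c, the imprinted gene of the cyclin-dependent kinase inhibitor p57, had 223 and 316 reads (0 h), 441 and 476 (24 h), 438 and 521 (48 h), and 159 and 176 (96 h). Bmf, a BH3-only protein that promotes apoptosis, had 1369 and 1293 reads (0 h), 2177 and 2645 (24 h), 1974 and 1846 (48 h), and 937 and 1142 (96 h). In all 3 the 24 h libraries were above those of 0 h, and the 96 h libraries were below them. Sox8 had 38.7 and 31.7 reads (0 h), 72.3 and 105 (24 h), 78.3 and 85.4 (48 h), and 30.1 and 28.2 (96 h), and stayed high at 48 h. Obox6, Smarcd3, Ell3 and Zfp521 were at 1.68 to 1.85 at 24 h. The 7 cytoskeletal genes had medians of 1.65 and 0.781. Trim63, a muscle ubiquitin ligase, had 276 and 279 reads (0 h), 493 and 569 (24 h), 496 and 463 (48 h), and 219 and 246 (96 h). Synm, an intermediate filament protein, had 1366 and 1402 reads (0 h), 2039 and 2293 (24 h), 2127 and 2112 (48 h), and 1096 and 1160.0 (96 h). Cnn1, the calponin of smooth muscle, Myh3, Eml1, Baiap2l1 and Aif1l completed the group.

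Of the 35 genes with no role, Susd5 had the highest ratio of all 112 at 24 h (2.97), with 63.8 and 54.7 reads (0 h), 159 and 197 (24 h), 104 and 99.9 (48 h), and 17.5 and 26.2 (96 h). Rassf4, a Ras association domain protein, had 174 and 194 reads (0 h), 435 and 449.9 (24 h), 392 and 283 (48 h), and 119 and 142 (96 h). Fndc3c1, a fibronectin type III domain gene, had 59 and 72.2 reads (0 h), 88.2 and 112 (24 h), 55.7 and 62.1 (48 h), and 8.74 and 2.01 (96 h), and Ppp1r16b, a regulatory subunit of protein phosphatase 1, stood at 0.193 of its start at 96 h. Ankrd37, an ankyrin repeat gene induced by hypoxia, had 233 and 199 reads (0 h), 451 and 338 (24 h), 228 and 204 (48 h), and 124 and 218 (96 h), and 1 of its 96 h libraries lay within the 0 h range. The others, with ratios of 1.51 to 2.36 at 24 h, were Sh2d4a, Sh2d5, Fndc5, H2-Q10, Usp29, Fam43b, S100a16, Wnk4, Bend7, Pip5kl1, Slfn9, Prelid2, Tsx, Igsf1, Tcp11l2, Mpp3, Pabpc4l, Fam102b, Patl2, Tceal1, Rpl3l, Rnf144a, Mxra7, Hebp2, Fam171a2, Tigd3, D430019H16Rik, Bcas1, Mpdz and Hydin.

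Intronic reads, which come largely from unspliced RNA, were high enough (a mean of at least 10) in 89 of the 112 genes. Their median was 1.85 times the 0 h value at 24 h, 1.59 times at 48 h and 0.721 times at 96 h. At 24 h introns were above 0 h in 79 genes and at 1.5 or more in 67. Of all 11238 genes at level with enough intronic reads, 5661 and 1428 were. At 96 h, 58 were at 0.9 or less, against 4148 of all. Of the members, 37 met both limits in introns as well as in exons, while 139 of all met both in introns. These introns come from the libraries whose exons chose the genes, so nothing is read from these counts. Gap43 introns had 183 and 137 reads (0 h), 263 and 309.8 (24 h), 192 and 199.5 (48 h), and 18.1 and 10.5 (96 h). Matn3 introns had 109.7 and 113 reads (0 h), 168 and 174 (24 h), 58.3 and 50.1 (48 h), and 2.01 and 1.05 (96 h). Both were close to the course of their exons. Usp29, an imprinted gene for a deubiquitinase, differed, with 121 and 119 reads (0 h), 208 and 271 (24 h), 144 and 131 (48 h), and 64.1 and 58.4 (96 h) in exons, but 289 and 297 reads (0 h), 222 and 183 (24 h), 199.8 and 219.7 (48 h), and 213 and 210.5 (96 h) in introns. Its introns were thus highest at 0 h.

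When doxycycline came back for 48 h at 2.5 µg/mL, 74 of the 112 genes rose against cells kept without it, and 0 fell (limma on log2(normalised reads + 1), adjusted p under 0.05 over 13176 genes). Of all genes tested, 31.8% rose and 32% fell. The median difference was 0.96 on the log2 scale, against 0.00 over all genes, and 106 of the 112 were above 0. At an unadjusted p under 0.05, 75 genes were higher and 1, Atp5k, was lower (4394 and 4408 of all 13176 genes tested). The 926 genes that stayed up at 96 h lay the other way, with 13 higher and 636 lower and a median of -0.89. At 0.1 µg/mL 49 of the 112 genes rose and 0 fell, against 22% of all genes higher and 22.1% lower, with a median of 0.66. At an unadjusted p under 0.05 those counts were 55 and 0 (3292 and 3355 of all 13176 genes tested).

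Both doses were compared with the same libraries without doxycycline, so overlap between their calls is not given. The group without doxycycline had the lowest of the 3 means in 99 genes. That count has no share over all genes beside it, so nothing is read from it. The fibroblast markers summed to 2279.5 and 2434 reads (no doxycycline), 1852 and 2121 (0.1 µg/mL), and 1827 and 2107 (2.5 µg/mL), with 8 of 13 under 10 reads, and their part in these counts was not tested.

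**Figure D2:**
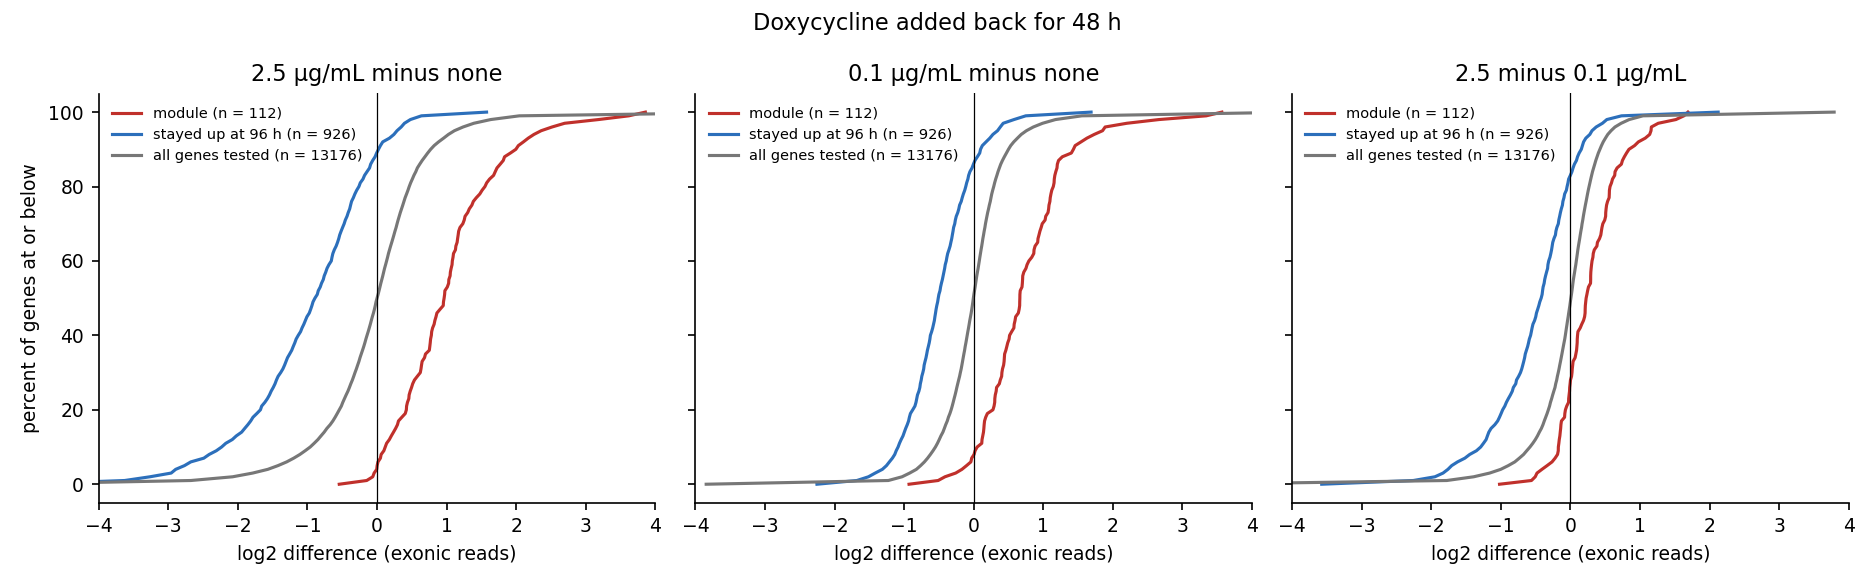
Percent of genes (y axis) at or below a log2 difference in exonic reads (x axis) for the 112 genes, the 926 genes that stayed up at 96 h and all 13176 genes tested. The curve of the 112 genes lies right of the others at both doses, with a median of 0.96 at 2.5 µg/mL and 0.66 at 0.1 µg/mL, and nearer to them for 2.5 against 0.1 µg/mL.

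Among neuronal genes 15 of 21 rose at 2.5 µg/mL and 12 at 0.1 µg/mL. Beside this and the counts by role below, 31.8% of all genes rose at 2.5 µg/mL and 22% at 0.1 µg/mL. Gap43 had 46.3 and 56 reads (no doxycycline), 584 and 646 (0.1 µg/mL), and 727 and 777 (2.5 µg/mL). All 4 dosed libraries lay far above both others, and the log2 difference at 2.5 µg/mL was 3.86 (SE 0.15, limma adjusted p = 9.36e-18). Camkv had 354 and 364 reads (no doxycycline), 824 and 782 (0.1 µg/mL), and 794 and 785 (2.5 µg/mL), and its dosed groups overlapped each other (2.5 µg/mL against none 1.13, SE 0.10, limma adjusted p = 2.28e-10). Chrnb4 had 28.6 and 10.8 reads (no doxycycline), 64.1 and 43.8 (0.1 µg/mL), and 112 and 78.3 (2.5 µg/mL), without overlap of the dosed cells and the rest (2.35, SE 0.41, limma adjusted p = 1.77e-05). Its log2 difference was 3.01 without library 1 and 1.68 without library 2 of the cells without doxycycline. Doc2a had 42.3 and 34.5 reads (no doxycycline), 94.2 and 79.2 (0.1 µg/mL), and 90.2 and 82.2 (2.5 µg/mL), a log2 difference of 1.15 (SE 0.30, limma adjusted p = 0.00155) between 2.5 µg/mL and none. Syt13 had 33.5 and 32.3 reads (no doxycycline), 64.1 and 87.7 (0.1 µg/mL), and 61.4 and 56.9 (2.5 µg/mL), and was called at 2.5 µg/mL (0.83, SE 0.33, limma adjusted p = 0.033), a call that ended without any 1 of the 4 libraries (0.0689 to 0.112). Kif1a was called as well, but on library 1 at 2.5 µg/mL, with 26.6 and 17.2 reads (no doxycycline), 30.2 and 53.7 (0.1 µg/mL), and 82.3 and 30.0 (2.5 µg/mL), and without that library its log2 difference was 0.469 (adjusted p = 0.481). The call also ended without library 2 of the cells without doxycycline (0.190). Atp2b2 and Phactr3 did not pass, with log2 differences of 0.02 and 1.05.

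Among matrix and secreted genes 9 of 14 rose at 2.5 µg/mL and 7 at 0.1 µg/mL. Matn3 had 3.94 and 4.31 reads (no doxycycline), 61.6 and 46.7 (0.1 µg/mL), and 64 and 63.3 (2.5 µg/mL), with the dosed libraries far above the rest (2.5 µg/mL against none 3.66, SE 0.47, limma adjusted p = 1.35e-07). Mmp2 had 180.2 and 85.1 reads (no doxycycline), 278 and 255 (0.1 µg/mL), and 329 and 294 (2.5 µg/mL), again without overlap (1.32, SE 0.22, limma adjusted p = 1.10e-05). Timp2 had 33.5 and 20.5 reads (no doxycycline), 27.6 and 36.8 (0.1 µg/mL), and 20.9 and 30.0 (2.5 µg/mL), which overlapped throughout (-0.06, SE 0.46, limma adjusted p = 0.917). The protease was thus called and its inhibitor was not. Sepp1, the second highest at 24 h in the time course, did not pass either (0.17, SE 0.28, limma adjusted p = 0.612).

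Of the signalling genes 12 of 16 rose at 2.5 µg/mL and 6 at 0.1 µg/mL. Dll1 had 13.8 and 17.2 reads (no doxycycline), 79.2 and 86.3 (0.1 µg/mL), and 107 and 109 (2.5 µg/mL). The 3 groups did not overlap, and the log2 difference at 2.5 µg/mL was 2.73 (SE 0.33, limma adjusted p = 5.71e-08). Dkk3 had 60.1 and 102 reads (no doxycycline), 131 and 119 (0.1 µg/mL), and 168 and 171 (2.5 µg/mL), a log2 difference of 1.1 (SE 0.25, limma adjusted p = 3.46e-04) between 2.5 µg/mL and none. Fstl3 had 39.4 and 49.6 reads (no doxycycline), 85.5 and 86.3 (0.1 µg/mL), and 115 and 87.8 (2.5 µg/mL), a log2 difference of 1.17 (SE 0.29, limma adjusted p = 9.84e-04) between 2.5 µg/mL and none. Both had dosed libraries above the rest. Cd6 had 8.86 and 12.9 reads (no doxycycline), 44 and 21.2 (0.1 µg/mL), and 47.7 and 44.3 (2.5 µg/mL), a log2 difference of 2.00 (SE 0.49, limma adjusted p = 9.19e-04) between 2.5 µg/mL and none. Fgfr4 had 59.1 and 48.5 reads (no doxycycline), 49 and 38.2 (0.1 µg/mL), and 56.2 and 51.4 (2.5 µg/mL), with the cells without doxycycline overlapping both dosed groups (0.01, SE 0.34, limma adjusted p = 0.99). Irs1 had 7.88 and 17.2 reads (no doxycycline), 22.6 and 31.1 (0.1 µg/mL), and 26.1 and 22.1 (2.5 µg/mL), in the direction of the others but without passing (0.98, SE 0.55, limma adjusted p = 0.121).

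Of the metabolic genes 10 of 11 rose at 2.5 µg/mL and 7 at 0.1 µg/mL. Pgk1 had 7022 and 7573 reads (no doxycycline), 10902 and 12858 (0.1 µg/mL), and 11748 and 11919 (2.5 µg/mL), and Pfkl had 3858 and 4095 reads (no doxycycline), 5495 and 6428 (0.1 µg/mL), and 5739.5 and 5499 (2.5 µg/mL). The dosed libraries of both enzymes were above the rest, with differences at 2.5 µg/mL of 0.70 (SE 0.06, limma adjusted p = 2.79e-11) for Pgk1 and 0.499 (SE 0.06, limma adjusted p = 4.07e-08) for Pfkl. Acot1 had 63 and 58.2 reads (no doxycycline), 156 and 175 (0.1 µg/mL), and 254 and 218 (2.5 µg/mL), in order of the dose (2.5 µg/mL against none 1.94, SE 0.21, limma adjusted p = 9.93e-09). Between the doses it did not pass (0.51, SE 0.21, limma adjusted p = 0.0601). Mt3 had 5.91 and 4.31 reads (no doxycycline), 33.9 and 46.7 (0.1 µg/mL), and 81.7 and 42.7 (2.5 µg/mL), a log2 difference of 3.31 (SE 0.50, limma adjusted p = 2.12e-06) between 2.5 µg/mL and none. Mgst1 had 5.91 and 4.31 reads (no doxycycline), 22.6 and 19.8 (0.1 µg/mL), and 32.7 and 28.5 (2.5 µg/mL), a log2 difference of 2.38 (SE 0.59, limma adjusted p = 0.00102) between 2.5 µg/mL and none. Mt3 and Mgst1 reached the minimum for a test, a mean of 10 reads, only through the dosed cells. The metabolic gene that did not rise was Atp5k, a small subunit of ATP synthase, with 130.0 and 136 reads (no doxycycline), 95.5 and 171 (0.1 µg/mL), and 82.3 and 100.4 (2.5 µg/mL), a log2 difference of -0.54 (SE 0.26, limma adjusted p = 0.0666) between 2.5 µg/mL and none.

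Nuclear and growth genes rose in 3 of 8 and cytoskeletal genes in 3 of 7 at 2.5 µg/mL, shares near the 31.8% of all genes that rose. At 0.1 µg/mL those counts were 4 and 2, beside 22% of all genes. Mycl had 313 and 287 reads (no doxycycline), 672 and 638 (0.1 µg/mL), and 832 and 777 (2.5 µg/mL), a log2 difference of 1.42 (SE 0.11, limma adjusted p = 1.17e-11) between 2.5 µg/mL and none. Bmf had 514 and 512 reads (no doxycycline), 715 and 826 (0.1 µg/mL), and 1030.4 and 1069.8 (2.5 µg/mL), a log2 difference of 1.032 (SE 0.10, limma adjusted p = 5.45e-10) between 2.5 µg/mL and none. In both genes the 3 groups were apart and in the order of the dose. Between the doses Bmf differed by 0.45 (SE 0.10, limma adjusted p = 5.18e-04) and Mycl by 0.30 (SE 0.11, limma adjusted p = 0.0332). The call on Mycl ended without any 1 of the 4 libraries, with log2 differences of 0.247 to 0.345. Cdkn1c had 55.1 and 112 reads (no doxycycline), 141 and 219 (0.1 µg/mL), and 167 and 212 (2.5 µg/mL), a log2 difference of 1.25 (SE 0.27, limma adjusted p = 2.21e-04) between 2.5 µg/mL and none. Synm had 762 and 740.5 reads (no doxycycline), 834 and 795 (0.1 µg/mL), and 720.0 and 723 (2.5 µg/mL), with the low dose the highest (-0.06, SE 0.09, limma adjusted p = 0.602). Zfp521, Eml1, Timp2, Jakmip2 and Atp5k were, with Synm, the members below 0 at 2.5 µg/mL, and none passed the test. Of the genes without a role, Susd5 had 9.85 and 12.9 reads (no doxycycline), 15.1 and 19.8 (0.1 µg/mL), and 62.7 and 49.8 (2.5 µg/mL), high at 2.5 µg/mL alone (2.21, SE 0.50, limma adjusted p = 3.72e-04).

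**Figure D3:**
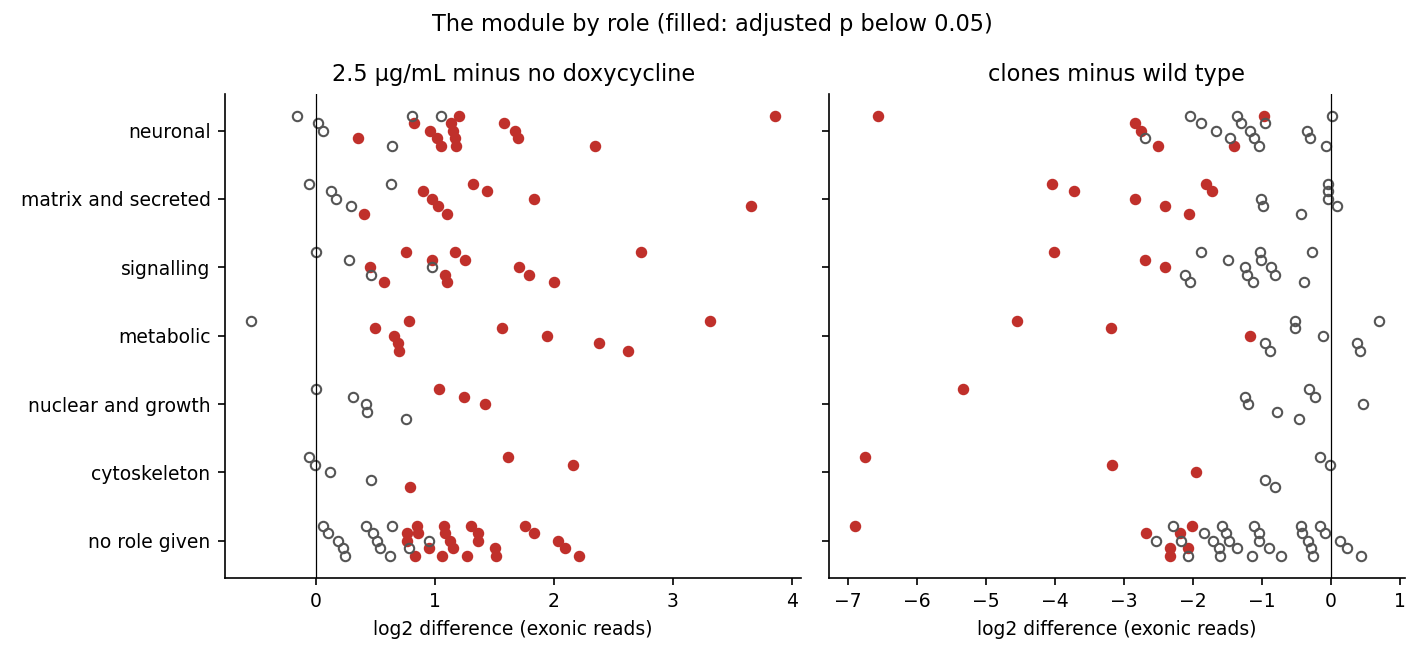
Log2 difference in exonic reads (x axis) of each of the 112 genes by role (rows), for 2.5 µg/mL against no doxycycline (left) and for the clones against wild type cells (right). Filled points have a limma adjusted p below 0.05: 74 genes on the left, all above 0, and 30 on the right, all below 0.

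Between the doses, 18 of the 112 genes (16.1%) were higher at 2.5 than at 0.1 µg/mL and 0 were lower. Of all genes, 20% were higher and 21% lower. The share called was below that of all genes, but the median SE was 0.316 in the 112 genes against 0.091 over all genes. A gene with a larger SE is called less easily, so the lower share is not read as a smaller difference. At an unadjusted p under 0.05, 23 were higher and 0 lower (3145 and 3195 of all 13176 genes tested). The count was 10 without library 2 at 0.1 µg/mL, 12 without library 1 there, and 9 and 10 without library 1 and library 2 at 2.5 µg/mL. Without library 1 at 0.1 µg/mL, Atp5k and Pfkl were also called lower. The median difference was 0.23, against 0.006 over all genes. The 3 means followed the dose in 73 genes, a count without a share over all genes, from which nothing is read. Spock2, a proteoglycan of the extracellular matrix, had 327 and 317 reads (no doxycycline), 388 and 453 (0.1 µg/mL), and 686 and 583 (2.5 µg/mL), a log2 difference of 0.59 (SE 0.13, limma adjusted p = 4.63e-04) between 2.5 and 0.1 µg/mL. Slc39a10 had 2908 and 3177 reads (no doxycycline), 4103 and 4129.5 (0.1 µg/mL), and 4701 and 4864 (2.5 µg/mL), a log2 difference of 0.22 (SE 0.05, limma adjusted p = 0.00234) between 2.5 and 0.1 µg/mL. In both, the groups were apart and in the order of the dose. For Susd5 the difference between doses was 1.64 (SE 0.50, limma adjusted p = 0.00981), a call that ended without library 1 at 0.1 µg/mL (adjusted p = 0.0624) or library 1 at 2.5 µg/mL (0.0806). Gap43, Camkv and Matn3 did not pass, with 0.29 (SE 0.15), -0.02 (SE 0.10) and 0.24 (SE 0.47).

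Introns of 58 of the 112 genes had a mean of at least 10 reads in the rescue. At 2.5 µg/mL 27 rose and 1 fell, with 24.3% of 11580 genes higher and 22.1% lower, and at 0.1 µg/mL 11 rose and 0 fell, with 5.33% higher and 5.01% lower. A gene low in cells without doxycycline could reach the minimum only through the dosed cells, so these counts describe the 58 genes alone. At 0.1 µg/mL 22 were higher and 0 lower at an unadjusted p under 0.05 (1365 and 1343 of all 11580 genes tested). The count of 11 became 7 without library 1 of the cells without doxycycline, 7 without library 1 and 5 without library 2 at 0.1 µg/mL, and that of 27 became 18 at the lowest. Pgk1 introns had 98.6 and 131 reads (no doxycycline), 249 and 322 (0.1 µg/mL), and 336 and 389.9 (2.5 µg/mL), a log2 difference of 1.66 (SE 0.17, limma adjusted p = 1.52e-08) between 2.5 µg/mL and none, against 0.70 in its exons. Pfkl introns had 125 and 112 reads (no doxycycline), 304 and 291 (0.1 µg/mL), and 277 and 268 (2.5 µg/mL), a log2 difference of 1.19 (SE 0.16, limma adjusted p = 8.02e-07) between 2.5 µg/mL and none. Both were apart from the cells without doxycycline at either dose. Matn3 introns had 0 and 0 reads (no doxycycline), 23.4 and 34.4 (0.1 µg/mL), and 82.4 and 64.1 (2.5 µg/mL). They reached the minimum only through the dosed cells, so no p-value is given for them. Gap43 introns had 8.65 and 21.2 reads (no doxycycline), 157 and 143 (0.1 µg/mL), and 55.5 and 50.2 (2.5 µg/mL), with the low dose the highest. The gene that fell was Zfp521, a zinc finger regulator of progenitor cells, with 36.3 and 28.9 reads (no doxycycline), 25.5 and 11.8 (0.1 µg/mL), and 20.2 and 6.41 (2.5 µg/mL), a log2 difference of -1.42 (SE 0.58, limma adjusted p = 0.0477) between 2.5 µg/mL and none. That call ended without library 2 at 2.5 µg/mL (0.357) or without library 1 or 2 of the cells without doxycycline (0.236 and 0.124), and its exons did not pass (0.00, SE 0.26, limma adjusted p = 0.997).

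In the clones labelled null for all 4 Argonautes, 30 of the 112 genes were lower than in wild type cells and 0 higher, with 7.75% of 13103 genes lower and 11% higher. The median difference was -1.17 on the log2 scale, against -0.01 over all genes. For the genes that stayed up in the time course it was 1.09, with 331 of 924 higher and 11 lower. Against B9, 24 were lower and 0 higher (5.4% and 7.61% of all genes), with a median of -1.15. Against E7, which has the human Ago2, 6 were lower and 0 higher (0.786% and 0.717% of all genes), with a median of -0.82. At an unadjusted p under 0.05 the counts lower were 51, 48 and 40, and those higher 0 in each. Of all 13103 genes tested, 2123, 1961 and 1282 were then lower and 2417, 2155 and 1363 higher. These comparisons share the clone libraries. Of the 30 genes lower than in wild type cells, 26 had also risen at 2.5 µg/mL (86.7% of the 30 and 35.1% of the 74). Over all genes tested in both, 765 of the 982 lower than in wild type cells had risen at 2.5 µg/mL (77.9%), and 66.1% of the 112 genes had risen there in all, so the overlap is not a result about the 112 genes.

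The counts among genotypes changed when a single library was left out. Leaving out a library changes the power for every gene, and shares over all genes are not given beside the counts below. They thus do not tell a change in the 112 genes from a general change in calls. Against wild type cells the clones had 14 genes lower without wild type library 1 and 8 without library 2. Against B9 they had 8 and 4 without B9 library 1 and library 2, and 15 without clone library 2. Against E7 they had 2 without E7 library 2, 3 without clone library 2 and 12 without clone library 1. Without clone library 1, Pfkl was called higher in each of the 3. The median over the 112 genes lay between -0.591 and -1.51 in all alternatives tried on these 3 comparisons. The fibroblast markers summed to 2277 and 2968 reads in the clones, 1078.5 to 1458 in E7, 1430 and 1880 in B9 and 1443 and 2594 in wild type cells. The group means of the 5 ES cell genes summed to 153610 reads in the clones, 172470 in E7 and 167870 in B9, against 114470 in wild type cells. The part of either sum in these results was not tested.

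**Figure D4:**
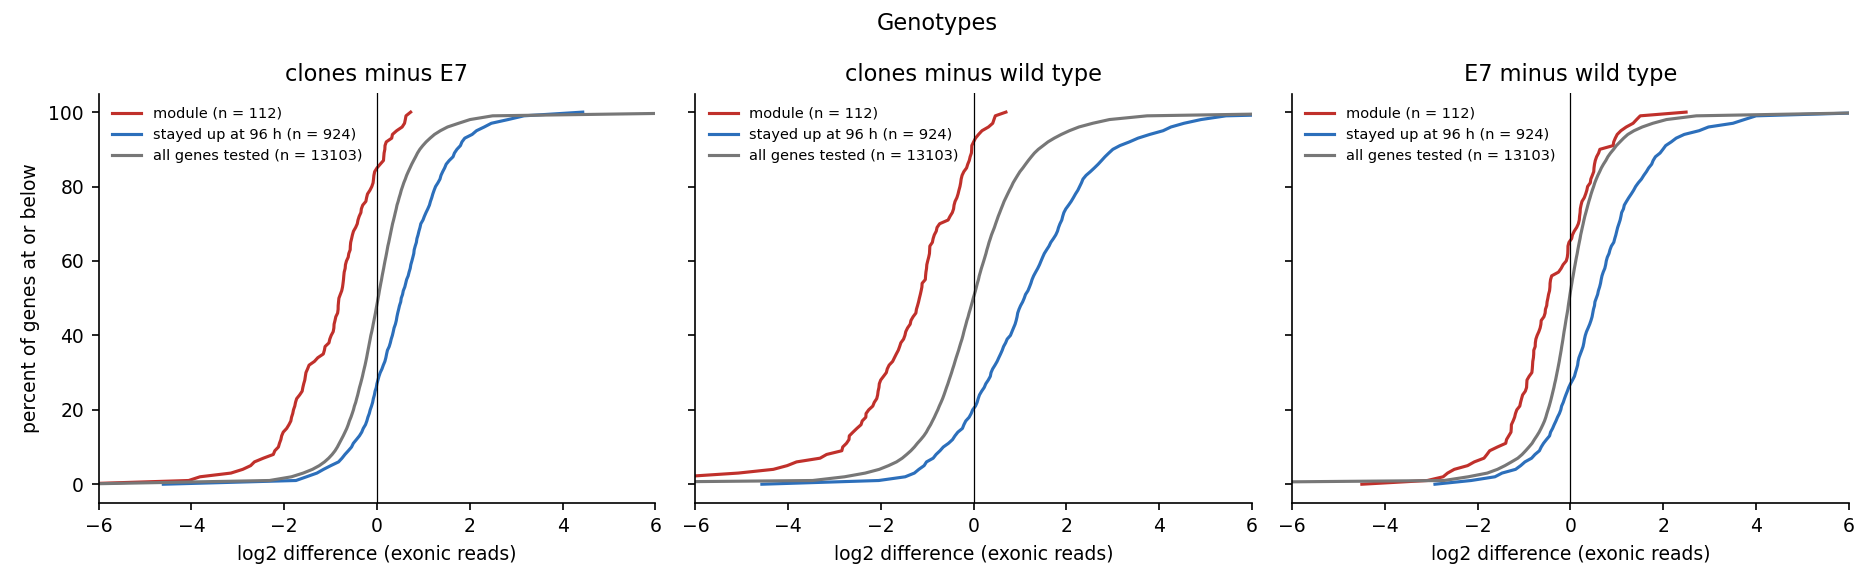
Percent of genes (y axis) at or below a log2 difference in exonic reads (x axis) between genotypes, for the 112 genes, the genes that stayed up at 96 h in the time course and all 13103 genes tested. The 112 genes lie left of all genes for the clones against E7 and against wild type cells, with medians of -0.82 and -1.17, and less so for E7 against wild type cells (-0.49).

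Camkv, Cdkn1c, Dll1, Gap43, Mgst1 and Syt13 were called lower in the clones than in E7, in B9 and in wild type cells. These comparisons share the clone libraries and are not independent. No share over all genes is given, so nothing is read from the number of such genes. Gap43 had 3.86 and 5.34 reads in the clones, against 1022, 733 and 203 in E7, 789 and 513 in B9 and 723 and 383 in wild type cells. No clone library came near another, and the log2 difference from E7 was -6.59 (SE 0.61, limma adjusted p = 9.55e-04), or -7.29 without E7 library 3. Dll1 had 18.8 and 25.3 reads in the clones, against 172, 396 and 139 in E7, 262 and 295 in B9 and 326 and 413 in wild type cells (clones against E7 -3.22, SE 0.46, limma adjusted p = 0.00991). The calls on both genes held without any single library, although that of Dll1 against E7 ended when these groups were fitted alone (0.0545). Mgst1 had 3.86 and 0 reads in the clones, against 28.3, 49.5 and 33.2 in E7, 32.6 and 84.6 in B9 and 45.8 and 55.5 in wild type cells. Syt13 had 36.7 and 34.7 reads in the clones, against 105, 178 and 189 in E7, 160.1 and 142 in B9 and 219 and 278 in wild type cells. Camkv had 291 and 398 reads in the clones, against 965, 837 and 710.5 in E7, 895 and 980.1 in B9 and 638 and 694 in wild type cells. The clones lay below every other library in all of these genes. Against E7 the call on Mgst1 ended without E7 library 1 (0.0809), E7 library 2 (0.157) or clone library 2 (0.150). That on Syt13 ended without E7 library 2 (0.157), E7 library 3 (0.0575) or clone library 2 (0.111), and that on Camkv without E7 library 1 (0.116), E7 library 2 (0.165) or clone library 2 (0.0510). Against wild type cells the call on Camkv ended without wild type library 1 (0.117), wild type library 2 (0.181) or clone library 1 (0.0729), and that on Mgst1 without wild type library 2 (0.0539). Against B9 the call ended without B9 library 1 or 2 for Camkv (0.0584 and 0.0669) and Syt13 (0.0946 and 0.0659), and without B9 library 2 for Mgst1 (0.072).

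Cdkn1c also differed between B9 and wild type cells. It had 40.5 and 54.7 reads in the clones, against 229, 316 and 151 in E7, 281 and 107 in B9 and 2287 and 1646 in wild type cells. Both B9 libraries were far below both of wild type cells, and it was the only one of the 112 genes called in B9 against wild type cells (-3.48, SE 0.50, limma adjusted p = 0.0356), where 0.0534% of all genes were lower and 0.0153% higher. At an unadjusted p under 0.05, 9 members were lower and 6 higher there (417 and 546 of all 13103 genes tested). That call ended without any 1 of the 4 libraries, with an adjusted p between 0.0538 and 0.281. Between the clones and E7 the call on Cdkn1c ended without E7 library 1 (0.109), E7 library 2 (0.192) or clone library 2 (0.122). Against B9 it ended without B9 library 1 (0.243), clone library 1 (0.0774) or clone library 2 (0.0831).

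In E7 against wild type cells 19 genes were lower and 5 higher at an unadjusted p under 0.05 (1110 and 1461 of all 13103 genes tested). At the adjusted threshold 7 genes were lower and 0 higher (1.47% and 3.1% of all genes), with a median of -0.49. The count was 2 without wild type library 1, 0 without wild type library 2 and 3 without E7 library 2. Kif1a had 80.5 and 112 reads in the clones, against 91, 113 and 61.3 in E7, 80.5 and 129 in B9 and 477 and 623 in wild type cells (E7 against wild type cells -2.66, SE 0.41, limma adjusted p = 0.00698). Fndc3c1 had 2.89 and 5.34 reads in the clones, against 28.3, 43.7 and 12.8 in E7, 68.1 and 32.7 in B9 and 594 and 588 in wild type cells (-4.50, SE 0.63, limma adjusted p = 0.0052). Wild type cells were high in both genes, and B9 lay near E7. Both calls ended without wild type library 2 (0.107 for Kif1a and 0.0766 for Fndc3c1). In Kif1a the clones did not lie below E7, while in Fndc3c1 they did. The other 5 were Slc39a10, Cdkn1c, Bcas1, Pde2a and Arrb1, with log2 differences of -1.09 to -3.12.

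Matn3 and Mmp2 showed how wide the libraries of a genotype could spread. Matn3 had 4.82 and 5.34 reads in the clones, against 24.3, 113 and 23 in E7, 56.6 and 181 in B9 and 47.5 and 204 in wild type cells. It was called against wild type cells (-4.04, SE 0.94, limma adjusted p = 0.0151), but not without wild type library 2 (0.142) or clone library 2 (0.0640). Mmp2 had 105 and 221 reads in the clones, against 205, 251 and 335 in E7, 203 and 654 in B9 and 394 and 731 in wild type cells, and the clones overlapped E7 and B9. It was called against wild type cells (-1.81, SE 0.57, limma adjusted p = 0.0485), a call that ended without any 1 of the 4 libraries (0.0564 to 0.277). Pgk1 had 4766 and 7804 reads in the clones, against 10419, 13507 and 8904 in E7, 16072 and 15502 in B9 and 10509 and 11934 in wild type cells. It was called against B9 (-1.37, SE 0.28, limma adjusted p = 0.0136), but not without B9 library 1 (0.0766) or library 2 (0.0612). Pfkl had 3414 and 11860.0 reads in the clones, against 6519.9, 6066 and 4544 in E7, 6832 and 5676 in B9 and 4911 and 4859.9 in wild type cells, and the clones lay on either side of all others. Mycl, which followed the dose in the rescue, had 683 and 492 reads in the clones, against 949.6, 1169.6 and 805 in E7, 679 and 739 in B9 and 626 and 740.0 in wild type cells, and did not pass in any comparison of the clones. In libraries of 1 genotype the 112 genes differed by a median of 0.584 to 0.756 on the log2 scale, against 0.326 to 0.570 for all genes.

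**Figure D5:**
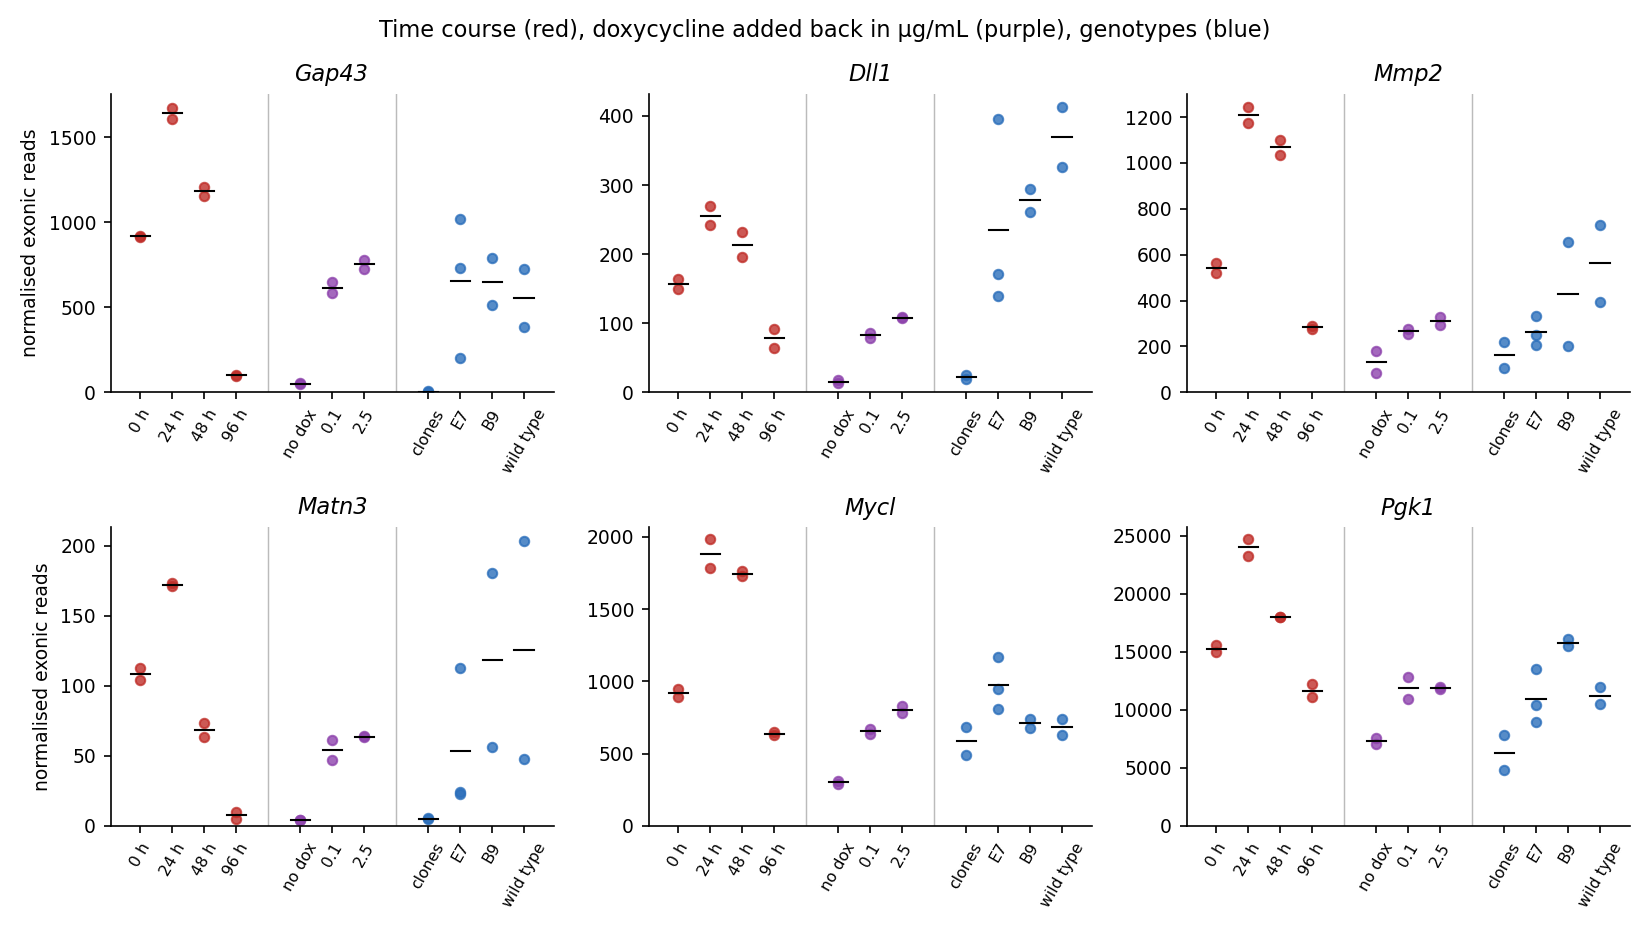
Normalised exonic reads (y axis) of 6 of the genes in every library: hours without doxycycline in red, doxycycline added back at 0, 0.1 or 2.5 µg/mL in purple, and genotypes in blue. Points are libraries and bars are means. Gap43, Dll1 and Matn3 are lowest at 96 h, without doxycycline and in the clones, whereas Mycl in the clones is near B9 and wild type cells and below E7. The 3 series were normalised apart.

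Of 31 lists of genes for pathways and cell types, 12 held a member and 20 of the 112 genes were on one. Hypoxia and glycolysis had 3 members among 45 genes at level, 18 of which were at 1.5 or more at 24 h, with a median of 1.40. At 96 h the median of that list was 1.09, with 22 genes at 1.1 or more and 18 at 0.9 or less. In the rescue at 2.5 µg/mL, 22 of its 47 tested genes rose and 15 fell, with a median of 0.10 (31.8% of all genes rose and 32% fell). For the clones against wild type cells, 4 of its 40 tested genes were higher and 6 lower, with a median of -0.06. Ankrd37 had 60.1 and 87.3 reads (no doxycycline), 158 and 185 (0.1 µg/mL), and 152 and 157 (2.5 µg/mL), a log2 difference of 1.08 (SE 0.23, limma adjusted p = 2.06e-04) between 2.5 µg/mL and none. Imprinted genes also had 3 members (Cdkn1c, Usp29 and Nnat) among 23 at level, and these 3 were the only ones at 1.5 or more at 24 h. In the rescue 15 of 24 imprinted genes rose and 4 fell at 2.5 µg/mL, with a median of 0.55. In the clones against wild type cells 1 of 23 was higher and 8 lower, with a median of -1.14 (11% of all genes were higher and 7.75% lower). Of the 20 imprinted genes tested there that are not members, 1 was higher and 7 lower.

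Matrix, integrin and protease genes, with Matn3, Mmp2 and Timp2 as members, were mostly lower in the rescue at 2.5 µg/mL: 9 of 41 rose and 24 fell, with a median of -0.25. In the time course the 40 genes of this list at level had medians of 1.18 at 24 h and 1.34 at 96 h, above their start at both times. For the clones against wild type cells, 11 of its 40 tested genes were higher and 5 lower, with a median of 0.32. Of neural genes, with Gap43 as the member on that list, 12 of 28 rose and 7 fell, and in the clones against wild type cells 0 of 29 were higher and 7 lower. Of Wnt targets and antagonists (Dkk3 and Sfrp2) 9 of 22 rose and 8 fell, and of Notch and Hedgehog genes (Dll1) 5 of 23 rose and 8 fell. Of cell cycle and Myc genes (Mycl and Cdkn1c) 9 of 36 rose and 17 fell. Beside the 31.8% of all genes that rose and the 32% that fell, the counts of these 3 lists are given as a description only. In the clones against wild type cells 5 of 25 Wnt genes, 5 of 22 Notch and Hedgehog genes and 5 of 36 cell cycle genes were higher. The counts lower were 4, 3 and 2 (11% of all genes were higher and 7.75% lower). Of the other lists with a member, Fgf and Erk feedback had 1 of 24 higher and 8 lower, and actin 0 of 23 and 8. Nodal, Tgf-beta and BMP had 7 of 39 and 3, metal stress 4 of 29 and 6, and Foxo 6 of 35 and 2. Lists thus went both ways, with members counted in. Among 22 known microRNA targets of ES cells at level there was no member, and 10 of them were at 1.5 or more at 24 h. The rule itself shut out the 21 that were at 1.1 or more at 96 h. The lists for naive pluripotency (27 genes) and for Atf4 and the unfolded protein response (36 genes) held none either. Members were 112 of the 12049 genes at level, so lists this short can hold none, and nothing is read from these absences.

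The 112 genes were spread over the genome. Chromosome 7 had 13, chromosome 2 had 12 and chromosome 14 had 0, and their share of a chromosome's genes at level was at most 1.68%, on chromosome 12. Within 200 kb of each other lay 3 pairs: Acot1 and Acot3, then Fstl3 and Plppr3 (77.8 kb apart on chromosome 10), and Sh2d5 and Fam43b (132.8 kb apart on chromosome 4).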

How the data were processed

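The authors deposited 6 tables of 18412 genes, exons and introns of 3 series apart, whose columns are signal values, the mean of normalised reads over the libraries of a group, per the file headers. TopHat2 2.0.12 and DESeq were used with build mm10, per the submitters' processing notes. How reads were counted, and with which annotation, is not given in the sources used here. The search for the whole reads of single libraries behind each mean, tested on simulated data, solved 404923 of 405064 values (99.965%). The 141 unsolved values lie in the line E7, nearly all above a mean of 20000, and those genes were left out of tests among genotypes. No member is among them. The design had foreseen deposited means, and no count test was run.

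Differences were tested with limma 3.58.1 (R 4.3.3) on log2(normalised reads + 1), 1 fit per table over all its groups with a trended prior, for genes with a mean of at least 10, with Benjamini-Hochberg adjustment over all genes tested and a threshold of 0.05. The minimum was taken over all libraries of a table, so a gene near 0 in 1 group could pass through the others. All 112 genes passed it in exons of the rescue and the genotypes. Matn3, Mt3 and Mgst1 without doxycycline, and Gap43, Matn3, Mgst1 and Fndc3c1 in the clones, were among those under it in a group. Fold changes of low genes are understated by the added read. Gene positions are from the GENCODE M21 annotation (mm10), where all 112 members matched, 1 of them by a synonym. Members and lists were chosen with earlier results of these data known. Named genes were those with the highest ratio at 24 h, the lowest at 96 h, the highest mean, the largest changes among genes called at 2.5 µg/mL or for the clones against E7, members of a list, and genes next to a limit. Other genes with values were chosen after their values were seen, and the rest are named to complete a group or a count. Alternatives were a pseudocount of 8, no filter on low values, upper quartile scaling, fits of 2 groups alone and leaving out each library.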

Additional observations from a re-analysis of the deposited data

How the results depend on the processing

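No paired analysis was possible because the columns carry no replicate number. With another pseudocount, no filter on low values, upper quartile scaling or a fit of the 2 groups alone, most counts of members called kept within 1.5 times. The exceptions follow, and the cause was not tested. With a pseudocount of 8, E7 against wild type cells had 1 gene higher, and B9 against wild type cells 2 lower. Without the filter, the clones against E7 had 3 lower, B9 against wild type cells 0 lower, and introns at 2.5 µg/mL 0 lower. With 2 groups alone, 1 gene was lower at 2.5 µg/mL, 0 were lower in introns, 1 was lower in the clones against E7, and 0 in B9 against wild type cells. Upper quartile scaling moved the median of all genes in the clones against wild type cells to -0.11, against -0.01, and that of the members to -1.27.

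Leaving out 1 library at a time gave the ranges of members called below. Shares over all genes are not given beside any count with a library left out, so a general change in calls is not told apart. At 2.5 µg/mL 53 to 63 were higher, at 0.1 µg/mL 36 to 40 higher and 0 to 1 lower, and at 2.5 against 0.1 µg/mL 9 to 12 higher and 0 to 2 lower. In introns 18 to 25 were higher and 0 to 1 lower at 2.5 µg/mL, and 5 to 8 higher at 0.1 µg/mL. In the clones 2 to 12 were lower and 0 to 1 higher against E7, 8 to 23 and 0 to 1 against wild type cells, and 4 to 25 and 0 to 1 against B9. E7 against wild type cells had 0 to 6 lower, and B9 against wild type cells 0 lower without any 1 of its 4. Where 1 library is left in a group, it is assumed to vary like the other groups.

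Refits by gene covered 88 pairs of a called gene and a comparison, chosen from all calls on members. Among these refits, 609 kept their side of the threshold, 105 lost it and 0 changed sign. Depth limits weakly expressed members, 37 of which had under 100 reads on average, and 2 libraries a group limit every test.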
